A study of Mus musculus with 6 samples.

Results

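The matrix metalloproteinases (Mmp), their tissue inhibitors (Timp) and the ADAMTS and ADAMTS-like genes were picked out of the gastrocnemius (GAS) transcriptome of Kvβ2 KO and WT mice by their gene symbols. These families were chosen with earlier results of these data known. All symbols made of Mmp, Timp, Adamts or Adamtsl and a number were taken, which gave 51 of the 37979 genes in the table, namely 23 Mmp, 4 Timp, 19 Adamts and 5 Adamtsl genes. RNA-seq was run on GAS muscle of 3 KO and 3 WT male mice of 20 weeks, with 1 library per mouse, and no mouse was treated. The KO mice lack Kvβ2, the potassium channel subunit encoded by Kcnab2, in the whole body and not in muscle alone, and the WT mice carry the intact gene. The libraries of each genotype are numbered 1, 7 and 8, and values below follow that order. Because no label ties the mice to litters or to a preparation day, p-values cover only the spread between these 6 libraries.

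MMPs are zinc-dependent endopeptidases that are made as inactive proenzymes and cut collagens, proteoglycans and other matrix proteins once their propeptide is removed. TIMPs bind the active site of MMPs and block it. ADAMTS proteases are secreted relatives that trim procollagens, large proteoglycans and microfibril proteins, while ADAMTS-like proteins share their thrombospondin repeats and lack the protease domain. In skeletal muscle these families act on the basement membrane around each fibre and on the connective tissue between fibres, and much of their RNA comes from fibroblasts, vessels and other cells beside the fibres.

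Kcnab2 was listed at 0, 0.0151 and 0 FPKM (fragments scaled to transcript length and library size) in the KO libraries and at 0.233, 0.1 and 0.11 FPKM in the WT libraries, so the target was lower in each KO library, at levels of a few fragments. Steps in the low values gave 15000000 to 19500000 fragments in the KO and 20400000 to 21700000 in the WT libraries, so each KO library was shallower, and 1 fragment on 1 kilobase was worth 0.0461 to 0.0668 FPKM. Of 9 skeletal muscle fibre markers, all were detected, and their summed level was 47700 to 52000 FPKM in KO and 31200 to 44900 FPKM in WT muscle. Adipocyte markers summed to 45.3 to 172 FPKM in KO and 7.76 to 35.1 FPKM in WT libraries, and tendon markers to 70.1 to 186 and 42.6 to 96.9 FPKM. Fibroblast markers summed to 787 to 1020 FPKM in KO and 740 to 802 FPKM in WT, macrophage markers (5 of 6 in the table) to 9.91 to 21.6 and 4.04 to 13.2 FPKM, and neutrophil markers to at most 2.36 FPKM in any library. Endothelial markers summed to 40.9 to 54.2 and 42.7 to 47.7 FPKM, pericyte and smooth muscle markers to 74.7 to 100 and 70.8 to 99 FPKM, Schwann cell markers (5 of 6 in the table) to 31.3 to 131 and 27.4 to 102 FPKM, and satellite cell markers to 5.91 to 6.44 and 3.32 to 5.61 FPKM, KO first. A sum follows its highest genes. Of the satellite cell markers, Cdh15 averaged 4.14 FPKM in KO and 2.63 in WT, Myf5 0.528 and 0.29, and Vcam1 0.979 and 0.869. Pax7 averaged 0.418 and 0.421, and Calcr 0.0955 and 0.192. Of the fibroblast markers, Gsn averaged 456 FPKM in KO and 292 in WT, and Dcn 358 and 400. The log2 fold change (KO minus WT) was above 0 for 3 of the 6 fibroblast markers. No marker of these lists was listed at 0 in all libraries, the part of these cells in the values below was not tested, and in whole muscle fewer cells of a type and less RNA per cell cannot be told apart.

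Timp2, Timp4, Timp3 and the gelatinase Mmp2 had the highest levels of these families in both genotypes. Of the 51 genes, 20 averaged 0.5 FPKM or more across all libraries and were tested, among them all 4 Timp and all 5 Adamtsl genes but only 6 of 23 Mmp and 5 of 19 Adamts genes. Of the 31 genes below that level, 18 were above 0 in all 6 libraries, 6 were above 0 in some libraries and 7 were listed at 0 in all. Mean FPKM over the 6 libraries reached 35.5 for Timp2, 16.1 for Mmp2, 7.98 for Adamts1 and 5.29 for Adamtsl5, the highest genes of the 4 families.

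None of the 20 tested genes differed between KO and WT at an adjusted p under 0.05 (limma on log2(FPKM + 0.1), Benjamini-Hochberg adjustment over all 12334 genes tested), against 0.324% of all tested genes. At an unadjusted p under 0.05, 7 of the 20 genes (35%) were higher in KO, beside 15.3% of all tested genes. At that level 0 were lower, beside 10.9%. The 7 were Adamtsl4, Adamtsl5, Adamts10, Mmp23, Mmp2, Mmp15 and Timp4. KO and WT values did not overlap for 6 of the 20 genes (30%), beside 18.3% of all tested genes higher and 16.2% lower without overlap. Those 6 were all higher in KO and all among the 7 named. The median log2 fold change (KO minus WT) of the 20 genes was 0.33 and 17 were above 0, while the median of all tested genes was 0.01. These fold changes are on the log2(FPKM + 0.1) scale, which understates the change of low genes. With libraries weighted by their noise (limma array weights), 9 of the 20 genes passed the adjusted threshold, where 3147 of all tested genes did. Since the filter is a mean over both genotypes, a gene such as Mmp23, whose WT mean was below it, was tested because of its KO level, and the counts over the 20 genes are given as a description.

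**Figure D1:**
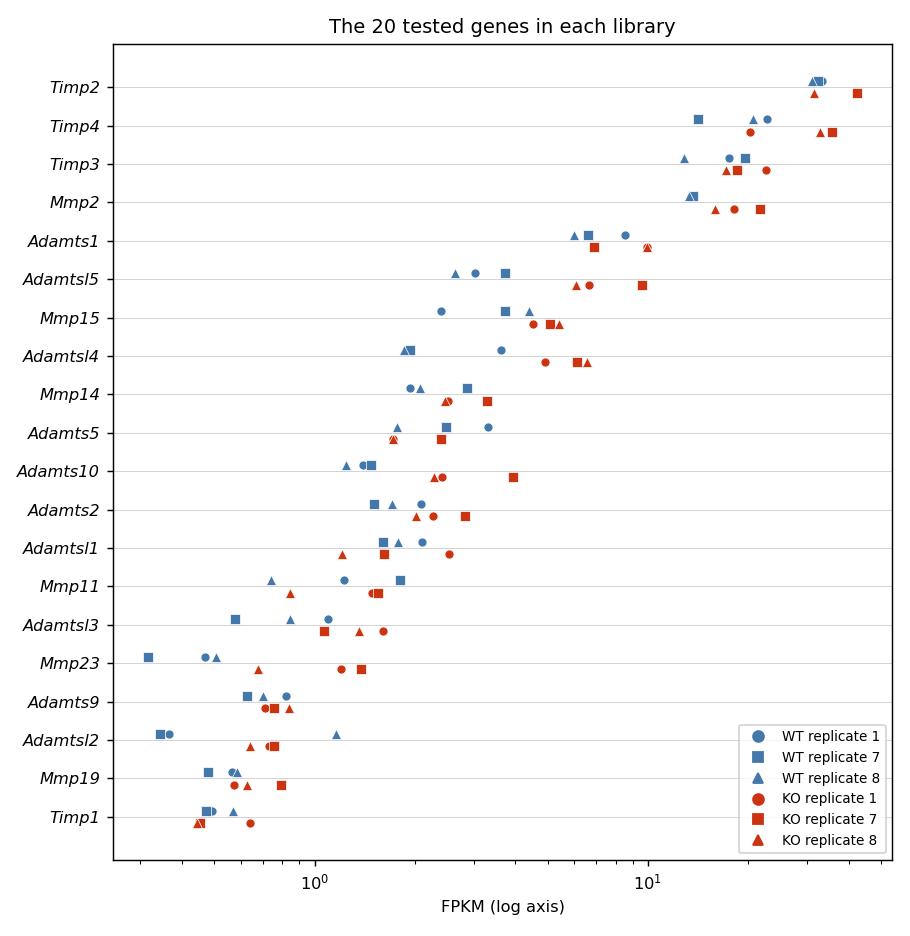
FPKM (log axis) of the 20 tested genes in each of the 6 libraries, WT in blue above KO in red, with 1 symbol shape per replicate number and genes ordered by mean level. Mmp2, Mmp15, Mmp23, Adamtsl4, Adamtsl5 and Adamts10 have all 3 KO points to the right of all 3 WT points, and Timp2 at the top reaches 42.4 FPKM.

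GC content went with the genotype difference over the whole table and bears on each of these values. Over 11985 tested genes, the log2 fold change correlated with the GC content of a gene's transcripts (Spearman rho 0.70 across genes, which are not independent replicates). The 8 tested members with a GC content of at least 55% had a median log2 fold change of 0.76, and all tested genes with that GC content had 0.47. The 12 members below 55% had a median of 0.25, where all such genes had -0.08. After each library's deviation was corrected for a smooth trend on GC content, the members' median was 0.17, and 12 of 20 were above 0. On that scale 3 members, Adamts10, Adamtsl5 and Timp4, were higher in KO at an unadjusted p under 0.05, beside 5.37% of all genes, and 3 members, Adamts10, Adamtsl5 and Mmp19, were higher without overlap, beside 8.14%. Whether the trend came from library preparation or from the muscle was not tested. Corrected values are given below beside single tested genes, though not beside genes below the filter or the family sums. Centring each library on its median left the split of all genes at 1667 higher and 1785 lower at an unadjusted p under 0.05, where the deposited scale gave 1891 and 1339, and moved the median log2 fold change of all genes from 0.01 to -0.04.

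**Figure D2:**
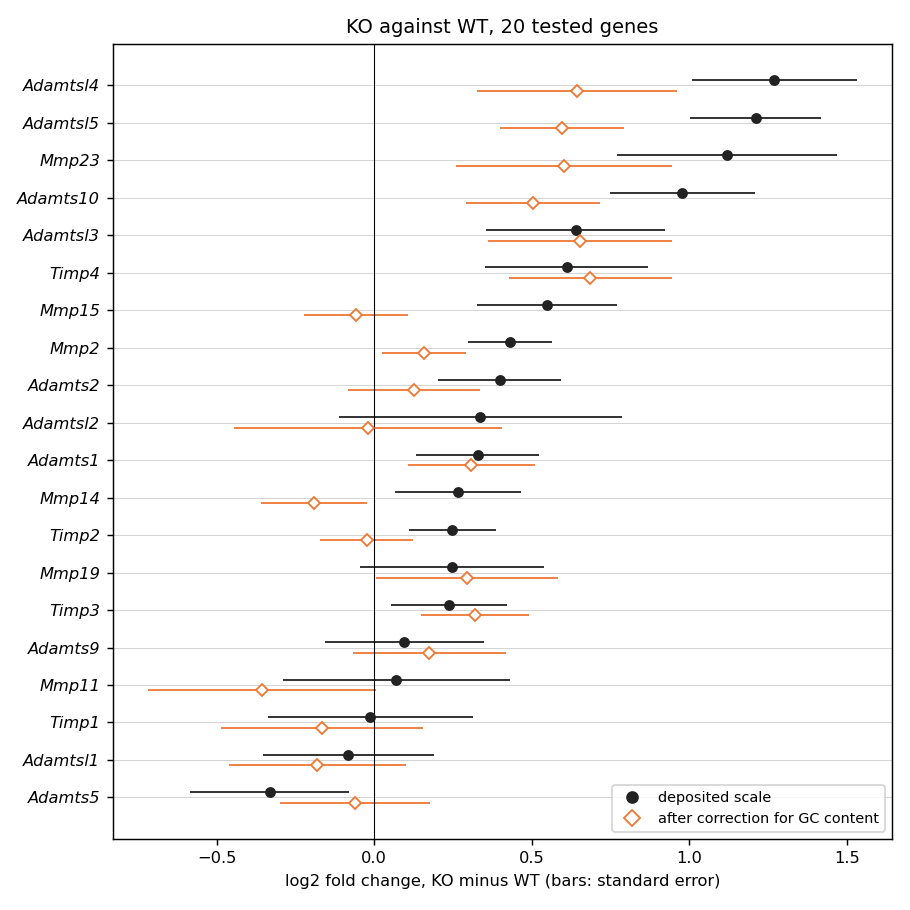
Log2 fold change (KO minus WT, on log2(FPKM + 0.1)) of the 20 tested genes with its standard error as bars, on the deposited scale (filled circles) and after correction for GC content (open diamonds). Adamtsl4 goes from 1.27 to 0.64 and Mmp15 from 0.55 to -0.06, while Timp4 stays at 0.61 and 0.69.

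The gelatinases cut denatured collagens and the type IV collagen of basement membranes. Mmp2 (gelatinase A, ENSMUSG00000031740, chromosome 8, 92827291 to 92853420, plus strand, GRCm38) had 18.1, 21.7 and 15.9 FPKM in KO and 13.8, 13.7 and 13.3 FPKM in WT libraries. The WT libraries lay close together, and the KO libraries were all above them, with replicate 7 highest. Its level was 18.5 ± 2.94 FPKM (SD, n = 3) in KO and 13.6 ± 0.286 in WT, a log2 fold change of 0.43 (SE 0.134, limma adjusted p = 0.111). After correction for GC content it was 0.16 (limma adjusted p = 0.705). Mmp9 (gelatinase B), which neutrophils and macrophages make in quantity, stayed below the filter at 0.0707, 0.427 and 0.164 FPKM in KO and 0.149, 0.209 and 0.154 FPKM in WT. KO replicate 7 was the highest and KO replicate 1 the lowest of the 6 libraries, and the genotypes overlapped (exact permutation test, two-sided, p = 0.8, where 3 against 3 cannot go below 0.1).

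Membrane-type MMPs are held at the cell surface, where Mmp14, together with Timp2, activates the Mmp2 proenzyme. Mmp14 (MT1-MMP) had 2.52, 3.29 and 2.46 FPKM in KO and 1.94, 2.87 and 2.07 FPKM in WT libraries, with replicate 7 highest in each genotype and overlap between them (log2 fold change 0.27, SE 0.199, limma adjusted p = 0.423). Its sign turned after GC correction, to -0.19. Mmp15 (MT2-MMP, chromosome 8, 95352268 to 95375080, plus strand) had 4.53, 5.1 and 5.43 FPKM in KO and 2.39, 3.73 and 4.39 FPKM in WT. All KO values were above all WT values, but KO replicate 1 and WT replicate 8 lay close together. The log2 fold change of Mmp15 was 0.55 (SE 0.222, limma adjusted p = 0.176), it was 0.30 without WT replicate 1, and it turned to -0.06 after GC correction. Mmp16 and Mmp17 were above 0 in every library but never above 0.29 FPKM, and their genotypes overlapped. Mmp24 and Mmp25 were above 0 in WT replicate 7 only, at 0.0117 and 0.0151 FPKM.

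Among the other tested MMPs, Mmp23, an MMP with a membrane anchor in its propeptide, showed the widest gap between genotypes. Mmp23 (chromosome 4, 155650655 to 155653384, minus strand) had 1.2, 1.38 and 0.679 FPKM in KO and 0.47, 0.317 and 0.506 FPKM in WT libraries. The groups did not overlap, though KO replicate 8 was nearer to the WT libraries than to the other KO libraries, and the highest value corresponds to roughly 34 fragments. Its log2 fold change was 1.12 (SE 0.348, limma adjusted p = 0.11) and 0.60 after GC correction (limma adjusted p = 0.577). Mmp11 (stromelysin 3, which furin activates inside the cell) had 1.49, 1.55 and 0.843 FPKM in KO and 1.23, 1.8 and 0.741 FPKM in WT. Replicate 8 was lowest in each genotype and the groups overlapped, with a log2 fold change of 0.07 (limma adjusted p = 0.919) that turned to -0.36 after GC correction. Mmp19, which cuts basement membrane proteins, had 0.575, 0.792 and 0.629 FPKM in KO and 0.565, 0.478 and 0.584 FPKM in WT, with overlap (log2 fold change 0.25, limma adjusted p = 0.615, and 0.29 after GC correction). On the opposite strand, exons of Tmem198b cover 22.3% of Mmp19's exonic bases and exons of Chchd10, which reached 223 FPKM, cover 5.58% of Mmp11's. The library kit kept strand, but whether counting used it is not given in the sources used here.

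Mmp28 (epilysin, chromosome 11, 83440768 to 83463071, minus strand) fell below the filter on the mean over both genotypes. It had 0.567, 0.763 and 0.55 FPKM in KO and 0.236, 0.27 and 0.141 FPKM in WT libraries. Every KO value was above every WT value, with a wide gap between the groups, and the mean difference of log2(FPKM + 0.1) was 1.21 (p = 0.1, two-sided exact permutation test, the lowest possible with 3 against 3). At these levels the highest library held roughly 49 fragments. The GC content of Mmp28 was 59.3%, and all tested genes with at least 55% had a median log2 fold change of 0.47. Genes below the filter have no GC-corrected value here. How many of all genes below the filter were without overlap was not counted.

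All 4 inhibitors were transcribed above the filter. Timp2, the inhibitor that also takes part in Mmp2 activation, had 42, 42.4 and 31.6 FPKM in KO and 33.3, 32.4 and 31.1 FPKM in WT libraries. KO replicates 1 and 7 were above all WT libraries and KO replicate 8 was among them, with a log2 fold change of 0.25 (SE 0.137, limma adjusted p = 0.283) and -0.02 after GC correction. Timp3, which binds to the matrix and also inhibits ADAMTS proteases, had 22.6, 18.5 and 17.1 FPKM in KO and 17.5, 19.5 and 12.8 FPKM in WT, with overlap (log2 fold change 0.24, limma adjusted p = 0.44, 0.32 after GC correction and 0.06 without WT replicate 8). Timp3 lies inside Syn3 on the opposite strand, and exons of Syn3, which was listed at up to 27.2 FPKM in this muscle, cover 21.3% of its exonic bases, so fragments of Timp3 and Syn3 may have been shared. Timp1, whose RNA is known to rise in injured tissue, was the lowest inhibitor, at 0.641, 0.453 and 0.443 FPKM in KO and 0.493, 0.474 and 0.57 FPKM in WT. Its genotypes had the same mean of 0.512 FPKM (log2 fold change -0.01, SE 0.325, limma adjusted p = 0.985, and -0.17 after GC correction). No library held more than roughly 8.9 fragments of Timp1, so these values rest on few fragments.

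Timp4, the inhibitor known for high expression in heart, muscle and fat, had the largest log2 fold change of the 4. Timp4 (chromosome 6, 115241892 to 115252205, minus strand) had 20.2, 35.7 and 32.8 FPKM in KO and 22.7, 14.1 and 20.6 FPKM in WT libraries. KO replicates 7 and 8 were above all WT libraries, while KO replicate 1 was below 2 of them. The log2 fold change of Timp4 was 0.61 (SE 0.258, limma adjusted p = 0.187), ran from 0.41 to 0.86 when each library was left out in turn, and was 0.69 after GC correction (limma adjusted p = 0.426). Adipocyte markers were higher in KO libraries as well, with 5 of 6 at an unadjusted p under 0.05 and 4 of 6 without overlap, beside 15.3% and 18.3% of all tested genes, and KO replicate 7 had both the highest marker sum and the highest Timp4. KO replicates 1 and 8 had adipocyte marker sums of 46.3 and 45.3 FPKM, at Timp4 levels of 20.2 and 32.8 FPKM. For 9 of the 20 tested genes, KO replicate 7 was the highest of the 6 libraries, and that share over all tested genes was not counted. The part of adipocytes in the Timp4 values was not tested.

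Adamtsl4 and Adamtsl5 had the largest log2 fold changes of the 20 tested genes on the deposited scale. After GC correction, Timp4 (0.686) and Adamtsl3 (0.652) were above both, and Mmp23 (0.603) was above Adamtsl5 (0.596). Adamtsl4, a microfibril-associated protein that binds fibrillin 1 and is known for its role in the lens zonule, had 4.92, 6.14 and 6.57 FPKM in KO and 3.62, 1.93 and 1.85 FPKM in WT libraries. All KO values were above all WT values, and WT replicate 1 stood above the other WT libraries. Adamtsl4 (ENSMUSG00000015850, chromosome 3, 95676201 to 95687917, minus strand) had a log2 fold change of 1.27 (SE 0.262, limma adjusted p = 0.0708). After GC correction it was 0.64 (limma adjusted p = 0.524), and the genotypes then overlapped.

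Adamtsl5, which also binds fibrillins, had 6.65, 9.59 and 6.08 FPKM in KO and 3.02, 3.74 and 2.64 FPKM in WT libraries. The groups were apart, with replicate 7 highest in each. Its mean was 7.44 ± 1.89 FPKM in KO and 3.14 ± 0.56 FPKM in WT (SD, n = 3), a log2 fold change of 1.21 (SE 0.208, limma adjusted p = 0.0667) that ran from 1.01 to 1.34 with each library left out. Adamtsl5 (chromosome 10, 80339110 to 80348412, minus strand) stayed without overlap after GC correction, at 0.60 (SE 0.196, limma adjusted p = 0.374).

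Of the other ADAMTS-like genes, Adamtsl3 had 1.6, 1.07 and 1.36 FPKM in KO and 1.1, 0.577 and 0.847 FPKM in WT libraries. KO replicate 7 was just below WT replicate 1, and the log2 fold change was 0.64 (SE 0.283, limma adjusted p = 0.201) and 0.65 after GC correction. Adamtsl2, a fibrillin-binding protein linked to TGF-β handling, had 0.729, 0.758 and 0.64 FPKM in KO and 0.366, 0.345 and 1.16 FPKM in WT. WT replicate 8 was the highest of all 6 libraries while the other WT libraries were the lowest, and the log2 fold change was 0.34 (limma adjusted p = 0.658) with WT replicate 8, 0.83 without it, and -0.02 after GC correction. Adamtsl1 had 2.54, 1.62 and 1.21 FPKM in KO and 2.1, 1.6 and 1.78 FPKM in WT, with KO libraries at both ends of the range (log2 fold change -0.08, limma adjusted p = 0.873, and -0.18 after GC correction).

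Adamts10, which acts on fibrillin 1 microfibrils, had the largest log2 fold change of the 5 tested ADAMTS proteases. Adamts10 (chromosome 17, 33524204 to 33553782, plus strand) had 2.41, 3.95 and 2.28 FPKM in KO and 1.4, 1.48 and 1.24 FPKM in WT libraries. The WT libraries lay close together below all KO libraries, of which replicate 7 was highest. The log2 fold change was 0.98 (SE 0.231, limma adjusted p = 0.0777), with a lowest value of 0.74 when KO replicate 7 was left out, and 0.50 after GC correction (limma adjusted p = 0.46), where the genotypes still did not overlap. Fibrillin 1 itself (Fbn1), looked up after these values were seen, had 4.23, 8.11 and 5.29 FPKM in KO and 4.84, 5.55 and 6.31 FPKM in WT, with overlap and a log2 fold change of 0.03 (SE 0.237, limma adjusted p = 0.942, and -0.09 after GC correction).

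The proteoglycan-cleaving ADAMTS group, known as aggrecanases and versicanases, had 3 of 7 genes above the filter. Adamts1 had 9.92, 6.87 and 9.93 FPKM in KO and 8.55, 6.61 and 5.99 FPKM in WT libraries, with overlap and a log2 fold change of 0.33 (SE 0.196, limma adjusted p = 0.318, and 0.31 after GC correction). Adamts5, which lies 53.1 kilobases from Adamts1 on chromosome 16, had 1.72, 2.39 and 1.72 FPKM in KO and 3.31, 2.48 and 1.77 FPKM in WT. WT replicate 8 lay among the KO libraries, and the log2 fold change of Adamts5 was -0.33 (SE 0.251, limma adjusted p = 0.426), -0.12 without WT replicate 1 and -0.06 after GC correction. Adamts9 had 0.712, 0.757 and 0.84 FPKM in KO and 0.819, 0.629 and 0.7 FPKM in WT, with overlap (log2 fold change 0.10, limma adjusted p = 0.833, and 0.18 after GC correction). Versican (Vcan), a substrate of these enzymes, had 1.04, 3.53 and 1.91 FPKM in KO and 4.8, 2.49 and 3.08 FPKM in WT, with overlap (log2 fold change -0.76, SE 0.424, limma adjusted p = 0.289). That value of Vcan was -0.51 after GC correction, and ran from -0.34 without KO replicate 1 to -1.18 without KO replicate 7. The cartilage proteoglycan aggrecan (Acan) was listed at 0 in all 6 libraries.

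Below the filter in that group, Adamts8 had 0.308, 0.208 and 0.178 FPKM in KO and 0.0847, 0.0426 and 0.108 FPKM in WT libraries. All KO values were above all WT values, with a mean difference of 0.89 in log2(FPKM + 0.1) (exact permutation test, two-sided, p = 0.1) and roughly 16 fragments in the highest library. Adamts20, Adamts15 and Adamts4 overlapped between genotypes and reached 0.627, 0.51 and 0.0488 FPKM.

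Adamts2, Adamts3 and Adamts14 remove the amino-terminal propeptides of fibrillar procollagens. Adamts2, the main enzyme of that kind in skin, had 2.27, 2.83 and 2.01 FPKM in KO and 2.09, 1.51 and 1.71 FPKM in WT libraries. KO replicate 8 was just below WT replicate 1, and the log2 fold change was 0.40 (SE 0.194, limma adjusted p = 0.233) and 0.13 after GC correction. Adamts3 and Adamts14 were above 0 in every library and at most at 0.216 and 0.173 FPKM. Of their collagen substrates, Col1a1 was spread widely within each genotype, at 25.9, 19.7 and 6.45 FPKM in KO and 9.8, 5.08 and 4.07 FPKM in WT (log2 fold change 1.33, SE 0.532, limma adjusted p = 0.173, and 0.81 after GC correction). Col1a1 overlapped between genotypes through KO replicate 8, and Col3a1, at 33, 34.5 and 21.3 FPKM in KO and 26.8, 21.7 and 24.7 FPKM in WT, overlapped too (log2 fold change 0.25, limma adjusted p = 0.44, 0.36 after GC correction, and from 0.12 without KO replicate 7 to 0.47 without KO replicate 8).

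Of the remaining Adamts genes, Adamts12 was highest in WT replicate 7, at 0.934 FPKM, and between 0.295 and 0.495 FPKM in the other libraries. Adamts6, Adamts7 and Adamts16 were above 0 in every library, with highest values of 0.292, 0.22 and 0.0971 FPKM and overlap between genotypes. Adamts17 had 0.0383, 0.0893 and 0.036 FPKM in KO and 0.0278, 0 and 0.0267 FPKM in WT libraries, without overlap but at no more than roughly 11 fragments. Adamts18 and Adamts19 were above 0 in some libraries only, and Adamts13, the von Willebrand factor protease made in the liver, was listed at 0 in all.

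Summed by family on the deposited scale, which is not corrected for GC content, the RNA of each of the 4 families was higher in every KO library than in every WT library. MMPs summed to 30.9 ± 4.47 FPKM in KO and 22.8 ± 1.31 FPKM in WT (SD, n = 3), and Mmp2 made up 56.7% to 64.1% of that sum in the 6 libraries. TIMPs summed to 88.1 ± 7.89 FPKM in KO and 68.5 ± 4.79 FPKM in WT, and Timp2 made up 38.6% to 49.2% of that sum. ADAMTS genes summed to 19.1 ± 0.404 and 15.3 ± 2.52 FPKM, and ADAMTS-like genes to 17.2 ± 1.78 and 8.9 ± 1.13 FPKM, KO first. Several main genes of these sums had smaller log2 fold changes after GC correction. Mmp2 went from 0.43 to 0.16, Timp2 from 0.25 to -0.02, Adamtsl4 from 1.27 to 0.64 and Adamtsl5 from 1.21 to 0.60. Timp4, at 0.61 and 0.69, and Adamts1, at 0.33 and 0.31, changed little. The FPKM of all genes summed to 431414 to 477356 in KO and 382780 to 432353 in WT libraries, and the part of that total in the sums was not tested. The ratio of summed TIMP to summed MMP was 2.85, 2.71 and 3.03 in KO and 3.43, 2.75 and 2.87 in WT. The ratios overlapped, and the KO minus WT difference of -0.16 turned to 0.054 without WT replicate 1.

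**Figure D3:**
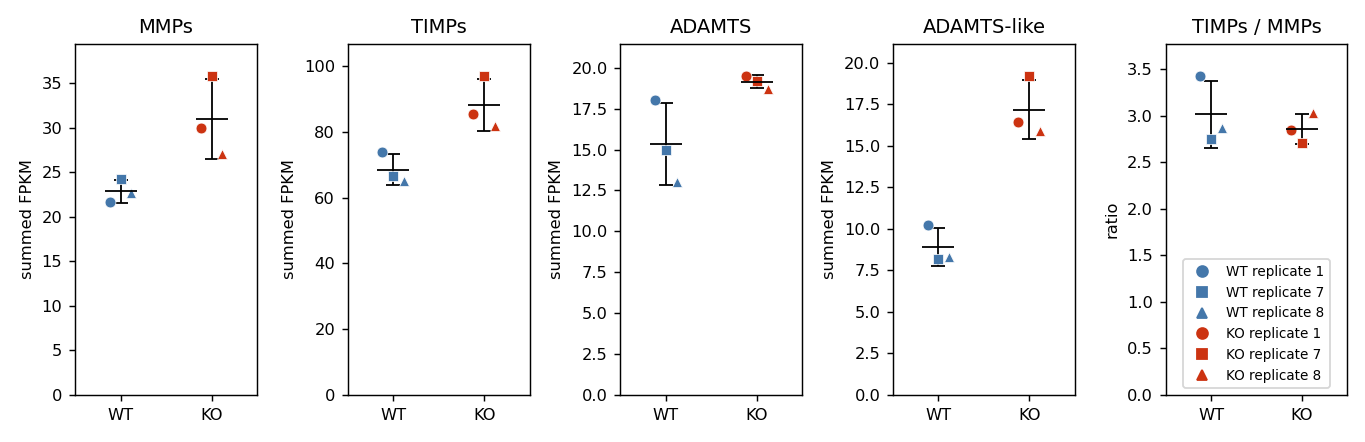
Summed FPKM of the MMPs, TIMPs, ADAMTS and ADAMTS-like genes and the ratio of the TIMP to the MMP sum in each library, with the mean and SD of each genotype (n = 3) as lines and each vertical axis from 0. The 4 sums, not corrected for GC content, are higher in all 3 KO libraries, from 8.9 to 17.2 FPKM on average for ADAMTS-like genes, while the TIMP to MMP ratios overlap at 2.71 to 3.03 in KO and 2.75 to 3.43 in WT.

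A tandem cluster of 10 Mmp genes on chromosome 9 was nearly silent in these muscles. The cluster spans 7272514 to 7699585 (427 kilobases, GRCm38) and holds the collagenases Mmp13, Mmp1a, Mmp1b and Mmp8, which cut native fibrillar collagen, the stromelysins Mmp3 and Mmp10, the macrophage elastase Mmp12, matrilysin (Mmp7), the enamel protease Mmp20, and Mmp27. None of the 10 reached the filter, 5 were listed at 0 in all 6 libraries, and the highest value was 0.366 FPKM, for Mmp27 in KO replicate 1, while 6 of the 13 Mmp genes elsewhere were tested. Mmp27 had 0.366, 0.0685 and 0.106 FPKM in KO and 0.288, 0.334 and 0.364 FPKM in WT. Mmp3 had 0.244, 0.282 and 0.0755 FPKM in KO and 0.0293, 0.148 and 0.225 FPKM in WT. Both overlapped between genotypes (exact permutation test, two-sided, p = 0.4 for Mmp27 and p = 0.5 for Mmp3), and Mmp8 and Mmp12, neutrophil and macrophage enzymes, were at most at 0.168 and 0.0742 FPKM. Mmp13 was above 0 in 2 WT libraries, at 0.0386 and 0.0184 FPKM. Since 1 fragment per kilobase is worth up to 0.0668 FPKM, a gene listed at 0 was not detectable at this depth. Outside the cluster, Mmp21 was listed at 0 as well.

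The promoters of the cluster differed in sequence from those of the other members. RefSeq promoter sequences (GRCm38.p6) were found for 36 of the 51 genes, and 3 short motifs were searched on both strands in the 250 bases before each start. These were the GC box GGGCGG, bound by Sp factors, the TATA box TATAAA, and the AP-1 motif TGANTCA, through which Fos and Jun induce several MMPs. For Adamts20 and Mmp11, the RefSeq start lay inside the gene, 61068 and 3994 bases from its 5′ end in GENCODE. Both held a GC box and count among the members outside the cluster. The motifs are marked in capitals in the 100 bases before the start for 4 genes of the cluster and 3 genes outside it that were above the filter, which show the contrast.
Mmp3: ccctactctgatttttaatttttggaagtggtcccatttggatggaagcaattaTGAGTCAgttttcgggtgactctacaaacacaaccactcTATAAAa
Mmp13: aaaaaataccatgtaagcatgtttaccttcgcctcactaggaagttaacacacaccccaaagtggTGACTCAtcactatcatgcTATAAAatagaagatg
Mmp10: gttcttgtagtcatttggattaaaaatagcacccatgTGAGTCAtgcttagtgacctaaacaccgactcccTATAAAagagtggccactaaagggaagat
Mmp7: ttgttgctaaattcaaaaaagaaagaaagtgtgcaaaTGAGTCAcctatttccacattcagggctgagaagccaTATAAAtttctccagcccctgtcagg
Adamtsl4: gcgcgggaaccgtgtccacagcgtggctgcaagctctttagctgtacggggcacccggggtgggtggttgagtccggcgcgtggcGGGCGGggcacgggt
Adamtsl3: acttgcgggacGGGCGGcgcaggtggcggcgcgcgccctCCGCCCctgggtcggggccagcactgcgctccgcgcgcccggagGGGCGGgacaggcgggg
Adamts1: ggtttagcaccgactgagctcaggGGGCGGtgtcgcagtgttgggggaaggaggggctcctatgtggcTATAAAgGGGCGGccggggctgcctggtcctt

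These windows are, 5′ to 3′ on the strand of the gene, chr9:7445722-7445821 (plus) for Mmp3, chr9:7272414-7272513 (plus) for Mmp13, chr9:7502242-7502341 (plus) for Mmp10, chr9:7691990-7692089 (plus) for Mmp7, chr3:95687918-95688017 (minus) for Adamtsl4, chr7:82335594-82335693 (plus) for Adamtsl3 and chr16:85803114-85803213 (minus) for Adamts1. The cluster windows each show an AP-1 motif followed by a TATA box, and the others show GC boxes, with a TATA box in Adamts1 alone. In the full 250 bases, the AP-1 motif was found in 7 of 10 promoters of the cluster and 0 of 26 others, where 6.75% of 32851 promoters of all genes hold it. The TATA box was found in 7 of 10 and 3 of 26 (12.4% of all promoters), and the GC box in 0 of 10 and 20 of 26 (32.7% of all promoters). GC content of the 250 bases was 37.2% to 45.6% in the cluster, with a median of 40.2%, and 53.6% to 80% in the other members, with a median of 64.8%, so the ranges did not overlap. The median over all promoters was 52.4%. Of the 15 tested members with a sequence, 13 held a GC box and 0 an AP-1 motif. A match is a description of letters, not of a bound site, and base composition alone changes how often each motif occurs.

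**Figure D4:**
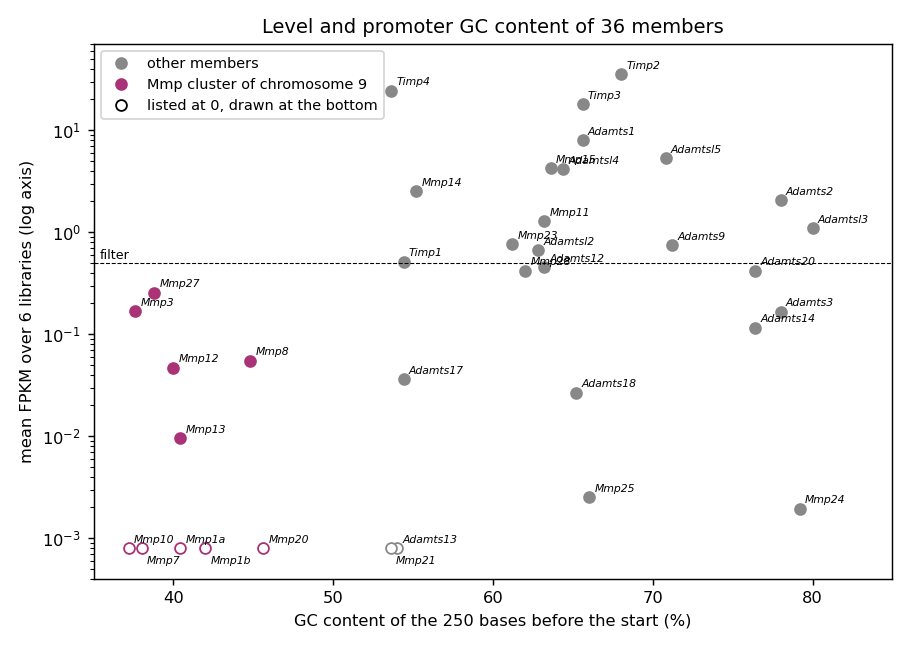
Mean FPKM over the 6 libraries (log axis) against the GC content of the 250 bases before the start for the 36 genes with a RefSeq promoter, with the chromosome 9 cluster in purple, genes listed at 0 as open circles at the bottom and the filter of 0.5 FPKM as a dashed line. The 10 cluster genes lie between 37.2% and 45.6% GC and below the filter, and the 26 others lie between 53.6% and 80% GC at levels on both sides of it.

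Genes that activate, inhibit or serve as substrates of these proteases also had no adjusted calls, except with array weights. Those gave 11 calls among the 16, 10 and 19 tested genes of the 3 lists, where 3147 of all 12334 tested genes passed. Of the 16 tested of 21 activators and other matrix proteases, 0 passed an adjusted p under 0.05 (limma), and at an unadjusted p under 0.05 3 were higher and 4 lower in KO, beside 15.3% and 10.9% of all tested genes. Furin, the convertase that removes the propeptide of membrane-type MMPs and ADAMTS proteases, had 6.38, 6.41 and 6.95 FPKM in KO and 2.97, 4.81 and 4.85 FPKM in WT libraries. All KO values were above all WT values (log2 fold change 0.66, SE 0.198, limma adjusted p = 0.105), and the value was 0.44 without WT replicate 1 and 0.15 after GC correction. Bmp1, the procollagen C-proteinase, and Pcsk7, another convertase, were higher in KO without overlap as well, with log2 fold changes of 0.68 (limma adjusted p = 0.0888) and 0.44 (limma adjusted p = 0.121), and 0.27 and 0.11 after GC correction. Plau, the urokinase-type plasminogen activator, had 11.4, 12.2 and 13.4 FPKM in KO and 17.8, 15.8 and 13.5 FPKM in WT. Its WT libraries were all above the KO libraries, by a narrow margin for replicate 8 (log2 fold change -0.33, SE 0.135, limma adjusted p = 0.175, and -0.30 after GC correction). The sheddases Adam10 and Adam17 and the fibroblast protease Fap were also lower in KO without overlap, at -0.33, -0.29 and -0.33 (limma adjusted p = 0.14, 0.181 and 0.18), and after GC correction at -0.07, -0.09 and 0.02. The median log2 fold change over the 16 genes was 0.09, beside 0.01 for all tested genes, and -0.009 after GC correction.

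Of the other inhibitors and clearance genes, 10 of 16 were tested, 0 passed the adjusted threshold (limma) and 3 were higher and 0 lower in KO at an unadjusted p under 0.05, beside 15.3% and 10.9% of all tested genes. The list is mixed and also holds genes such as Pcolce, Pcolce2 and Serpinh1, so its counts and median are not those of inhibitors alone. Lrp1, the endocytic receptor that clears MMPs and TIMP-bound proteases, had 6.94, 14.1 and 7.45 FPKM in KO and 5.3, 4.51 and 5.24 FPKM in WT libraries. The KO libraries were all higher, and replicate 7 stood far above the others (log2 fold change 0.84, SE 0.261, limma adjusted p = 0.114). The value of Lrp1 was 0.52 without that library and 0.35 after GC correction. Spock2 (testican 2) and Thbs1 (thrombospondin 1, which binds MMPs) were higher in KO without overlap, with log2 fold changes of 0.92 (limma adjusted p = 0.0834) and 0.90 (limma adjusted p = 0.16), and 0.54 and 0.90 after GC correction. Without WT replicate 8, the value of Thbs1 was 0.49. Reck, a membrane-anchored MMP inhibitor, had 1.22, 1.09 and 0.899 FPKM in KO and 1.04, 1.05 and 0.651 FPKM in WT, with overlap (log2 fold change 0.23, limma adjusted p = 0.612, 0.30 after GC correction and 0.02 without WT replicate 8). The median over the 10 genes was 0.62, and 0.42 after GC correction.

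Matrix substrates had 19 of 24 genes tested, with 0 past the adjusted threshold (limma), 4 higher and 0 lower in KO at an unadjusted p under 0.05 (15.3% and 10.9% of all tested genes), and a median log2 fold change of 0.51 that was 0.07 after GC correction. Elastin (Eln), the core of elastic fibres that form on microfibrils, had 1.6, 4.06 and 2.68 FPKM in KO and 0.438, 0.821 and 1.49 FPKM in WT libraries. The groups did not overlap, although KO replicate 1 and WT replicate 8 were close, and the log2 fold change was 1.55 (SE 0.457, limma adjusted p = 0.104) and 1.07 after GC correction. The basement membrane genes Col4a2 and Hspg2 (perlecan) were higher in KO without overlap, at 0.64 (limma adjusted p = 0.124) and 0.55 (limma adjusted p = 0.148), and both signs turned after GC correction, to -0.00214 and -0.0996.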

How the data were processed

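GAS RNA of 3 KO and 3 WT mice was made into stranded mRNA libraries, and per the labels the authors mapped reads to GRCm38 with TopHat and computed gene FPKM values with Cufflinks. Versions, annotation release and strand setting are not given in the sources used here. The deposited FPKM are normalised values, so no count model was used, and depth was estimated from whole-fragment steps of low values (90.1% to 94.5% whole within 0.15 of a fragment). Genes averaging 0.5 FPKM or more were tested with limma 3.58.1 (R 4.3.3) on log2(FPKM + 0.1), with a variance trend, without a replicate block, and with Benjamini-Hochberg adjustment over 12334 genes. GC content came from GENCODE vM21 transcripts (97.17% of tested genes), and its trend was removed per library by loess (span 0.3). Genes below the filter had exact permutation tests on FPKM. Members and gene lists were chosen with earlier results of these data known. Every tested member is described, with lower ones named if above 0 in all 6 libraries. Pathway genes are named at an unadjusted p under 0.05 without overlap, at most 4 per direction and list, plus Reck, Furin, Lrp1, Col1a1, Col3a1 and Vcan. The code was tested on simulated data. The 19 alternatives cover pseudocount, filter, scaling, weights, block, GC, length and each library left out. Paralogs may share fragments.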

Additional observations from a re-analysis of the deposited data

How the results depend on the processing

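Of 37 named genes, 24 kept the sign of their log2 fold change under each alternative run on them (19, or 18 for 6 genes that a filter of 1 FPKM removed), and 31 of 697 values had the other sign. Part of that was fixed in advance. Another filter, leaving out genes listed at 0, dropping the variance trend or adding the replicate block cannot change a gene's fold change in this balanced design. GC correction gave the same fold changes with and without the block, so it was counted more than once. The number of members past the adjusted threshold was 0 in all alternatives except array weights, with 9, which also gave 11 pathway genes and 1 member lower at an unadjusted p. Under array weights, 2316 of all 12334 tested genes were lower at an unadjusted p under 0.05. All tested genes past the adjusted threshold numbered 40, and from 1 (genes listed at 0 left out) to 3147 (array weights). GC correction, with or without the replicate block, left 3 members higher at an unadjusted p and 3 without overlap. Of all 11985 genes on that scale, 643 were higher at an unadjusted p without the block and 551 with it, and 8.14% were higher without overlap. The replicate block alone gave 0 adjusted calls, 7 members higher at an unadjusted p and 6 without overlap. Of all 12334 tested genes, 1754 were higher at an unadjusted p with that block, and 18.3% were higher without overlap, which a block cannot change. Same-numbered libraries did not deviate together (correlations -0.025, -0.080 and 0.034), so the numbers were not taken as pairs. With each library left out, 7 to 10 members did not overlap, with 10 without WT replicate 1, since fewer samples overlap less, and 5 to 8 were higher at an unadjusted p. In the same fits, 1392 (without KO replicate 7) to 1917 (without WT replicate 8) of all 12334 tested genes were higher at an unadjusted p. The share without overlap over all genes is not given for these fits, so the 7 to 10 are a description only.

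Under GC correction, with or without the block, Adamtsl2 was at -0.0184, Mmp11 at -0.355, Mmp14 at -0.191, Mmp15 at -0.0573, Timp2 at -0.0242, Col4a2 at -0.00214, Hspg2 at -0.0996 and Fap at 0.0192. Array weights gave -0.582 for Mmp11, -0.0698 for Mmp14, -0.0181 for Timp3 and -0.016 for Reck. Quantile normalization gave -0.0056 for Adamts9 and -0.0353 for Mmp11, and a length correction -0.0533 for Mmp11. With each library left out, Adamtsl1 ran from -0.353 to 0.153, Mmp11 from -0.237 to 0.352 and Timp1 from -0.157 to 0.0664. The cause was not tested. Depth limits the genes below the filter and low tested genes such as Timp1, since 1 fragment on 1 kilobase is worth 0.0461 to 0.0668 FPKM.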
